A study of Mus musculus with 2 samples.

Results

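A group of 6 transcriptional repressors that take part in lineage choice of blood progenitors was examined in granulocyte-monocyte progenitors (GMPs), the bone marrow progenitors of granulocytes and monocytes. They were chosen by symbol and comprised Gfi1 and Gfi1b, the members Id1, Id2 and Id3 of the Id family, and Zeb2. All 6 were among the 24421 gene symbols that the authors deposited. RNA was compared between purified GMPs of non-tumor-bearing female mice (NTB-GMP) and those of female mice with orthotopic implants of the 4T1 line, which derives from a mammary carcinoma (4T1-GMP). All mice were of an F1 semi-syngeneic H-2b/d background according to the labels, whereas the methods of the study name the BALB/c and C57BL/6 strains, and the labels give no age and no number of pooled animals. Each group had 1 library, so no difference below has a replicate check, and every interval is a 95% interval on reads that covers counting error only.

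GFI1 and GFI1B are zinc-finger proteins that recruit histone demethylase and deacetylase complexes to DNA. GFI1 is known for favoring the granulocyte over the monocyte fate, and GFI1B for its role in erythroid and megakaryocyte cells. The ID proteins have a helix-loop-helix domain but no basic region, so they pair with E proteins and keep them off DNA. ZEB2 binds E-box sequences as a repressor and is known for its role in monocyte and dendritic cell development.

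In GMPs of tumor-bearing mice, Gfi1 and Id1 were higher and Gfi1b, Id2 and Zeb2 were lower than in NTB-GMP, while Id3 was at or near 0 in both libraries. Gfi1b differed most, 14.0-fold lower in 4T1-GMP, followed by Id1, 3.91-fold higher. Levels are RPKM, that is, reads scaled to gene length and library size. Log2 ratios were taken as 4T1-GMP over NTB-GMP after adding 0.1 to each RPKM, which makes the ratios of low genes too small. A gene was compared if its RPKM averaged 1 or more, and Id3, at 0.103, was the 1 member under that filter. Of the 10378 genes compared, 3.25% were at least 2-fold higher and 4.92% at least 2-fold lower in 4T1-GMP, 8.17% in either direction. Among the 5 members past the filter, 1 (Id1) was at least 2-fold higher and 1 (Gfi1b) at least 2-fold lower. Gfi1b passed the filter only through NTB-GMP. Gfi1, Id2 and Zeb2 lay within 2-fold, with read intervals of the ratio that did not include 1.

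**Figure D1:**
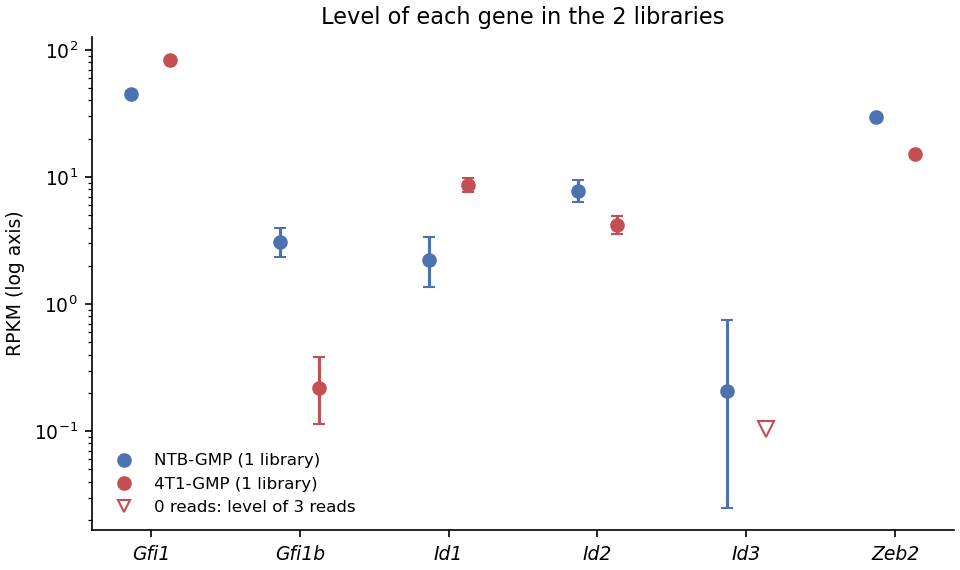
RPKM of each gene (log axis) in NTB-GMP and 4T1-GMP, 1 library each; bars are 95% Poisson intervals on the reads, and the open triangle marks the level of 3 reads where no read was found. Gfi1 was the highest of the 6 in both libraries (45.0 and 82.7 RPKM), and the intervals of the 2 libraries do not overlap for any gene but Id3.

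The libraries differed in depth and in ribosomal RNA. The RPKM imply library sizes of 10180365 in NTB-GMP and 30016263 in 4T1-GMP, so a low gene is measured less precisely in NTB-GMP. The ribosomal RNA precursor Rn45s took up 17.0% and 6.98% of these sizes. Leaving them out shifts every log2 RPKM ratio by -0.16, and 2-fold calls then number 266 higher and 754 lower, against 337 and 511 as reported. Markers of cell types were compared as well, although passing the filter, a mean RPKM of 1, is no check of the sort. All 10 GMP and primary granule markers passed it, with 4 at least 2-fold higher and 1 at least 2-fold lower in 4T1-GMP. Genes of surface proteins used to define GMPs were lower there: Kit had 78.5 RPKM in NTB-GMP and 49.1 in 4T1-GMP, Fcgr3 (CD16) had 53.1 and 28.6, and Cd34 had 154 and 59.4. Of 10 lymphoid markers, the 2 past the filter were genes of cytotoxic cells, Nkg7 at 190 and 337 RPKM and Gzmb at 17.3 and 1.91 RPKM, and the summed RPKM of the list was 210 and 339. Of 8 stem and early progenitor markers, 5 passed the filter and 3 of these (Meis1, Sox4 and Cd34) were at least 2-fold lower, with summed RPKM of 220 and 86.6 and a median log2 ratio of -1.37. The summed RPKM of 12 mature neutrophil markers was 566 in NTB-GMP and 4067 in 4T1-GMP, with 10 of 12 at least 2-fold higher. Most of it came from S100a8 (208 and 1594 RPKM) and S100a9 (189 and 1974 RPKM). Mmp8, Mmp9 and Ly6g passed the filter only through 4T1-GMP. The summed RPKM of 11 monocyte and dendritic markers was 283 and 120, with 6 of the 9 past the filter at least 2-fold lower. Of these, Cx3cr1 passed only through NTB-GMP. Over all genes compared, 3.25% were at least 2-fold higher and 4.92% at least 2-fold lower. For these bulk RNA values, fewer cells of a type and less RNA per cell cannot be told apart.

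The GFI proteins recognize sites with an AATC core, and GFI1 is known to repress Gfi1b and its own gene, so the 250 bases before the annotated start are shown for Gfi1b and Zeb2, the members whose windows held the most matches to it. The sequences are from RefSeq (GRCm38.p6), read 5′ to 3′ on the minus strand of each gene, with each AATC or GATT, its reverse complement, in capitals. Of the 6 members, 5 (all but Id1) had windows there, 9 in all. The Zeb2 sequence is the farthest upstream of its 4 windows. They cover chr2:28621983-28622232 for Gfi1b and chr2:45117443-45117692 for Zeb2, and neither window overlaps a GENCODE M21 gene.
Gfi1b: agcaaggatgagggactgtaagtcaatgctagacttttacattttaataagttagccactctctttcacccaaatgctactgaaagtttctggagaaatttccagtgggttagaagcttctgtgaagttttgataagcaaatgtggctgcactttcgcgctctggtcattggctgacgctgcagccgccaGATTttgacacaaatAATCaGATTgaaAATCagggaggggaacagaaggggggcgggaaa
Zeb2: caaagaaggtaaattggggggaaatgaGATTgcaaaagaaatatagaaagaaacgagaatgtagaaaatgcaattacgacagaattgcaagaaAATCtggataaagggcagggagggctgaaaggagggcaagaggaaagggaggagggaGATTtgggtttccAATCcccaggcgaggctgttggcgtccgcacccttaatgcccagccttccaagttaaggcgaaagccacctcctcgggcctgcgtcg
The Gfi1b sequence held 4 matches, whose leftmost bases lay at -60, -45, -40 and -33 from the start. Zeb2 held 4 matches, at -223, -157, -100 and -87, and Id2 held 1, at -53. The other Zeb2 windows held 0 or 1. In Gfi1, 1 of its 2 windows held 1 match, and the Id3 window held 0. Among 32851 windows of the same length for all genes, 69.0% held at least 1 match and 7.04% held 4 or more. The longer core AAATCA, searched on both strands, was found in the Gfi1b window and in no other member window, against 12.4% of all windows. The E-box CANNTG was found in both Gfi1 windows and in those of Gfi1b and Id2, and was not found in those of Zeb2 or Id3, against 66.2% of all windows. CACCTG, the E-box form bound by ZEB proteins (a form of CANNTG), was found on either strand in 1 member window, of Gfi1, against 17.2% of all windows. These matches describe letters in these windows and are not evidence of binding.

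Gfi1 lies on the minus strand of chromosome 5 at chr5:107716657-107726036 (GRCm38, GENCODE M21). Its level was 45.0 RPKM from 1424 reads in NTB-GMP and 82.7 RPKM from 7712 reads in 4T1-GMP. The level was therefore higher in 4T1-GMP, with an RPKM ratio of 1.84 (interval by the Clopper-Pearson method 1.74 to 1.94). The log2 ratio was 0.88, above that of 95.9% of the genes compared. Gfi1 was also among the more highly expressed genes, its RPKM exceeding that of 87.4% of the compared genes in NTB-GMP and 92.6% in 4T1-GMP. The higher Gfi1 level stood beside higher mature neutrophil markers (median log2 ratio 2.29 over 12 genes, all higher) and beside GMP and primary granule markers, whose median log2 ratio was 0.39 over 10 genes. In the latter list 6 of the 10 genes had a log2 ratio above 0. Ms4a3 (1.35), Prtn3 (1.24), Ctsg (1.11) and Csf3r (1.09) were at least 2-fold higher, and Mpo was at 0.12. Cebpa (-0.36), Kit (-0.67), Fcgr3 (-0.89) and Cd34 (-1.37) were lower. The Gfi1 to Elane ratio of RPKM, Elane encoding neutrophil elastase, was 0.0243 in NTB-GMP and 0.0282 in 4T1-GMP, a 1.16-fold difference. No interval was computed for it. The ratio of Gfi1 to Cebpa, of the same list, was 0.987 and 2.33, a 2.36-fold difference (exact conditional interval 2.16 to 2.58). Ms4a3, Prtn3, Ctsg and Csf3r had larger log2 ratios than Gfi1, so the direction of such a ratio depends on the marker chosen. The GMP sort in the study's methods depletes cells that bear Gr-1, a marker of maturing granulocytes, although the labels do not say that these libraries were sorted in that way. The part of neutrophil-lineage cells in the Gfi1 difference was not tested.

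Gfi1b lies on chromosome 2, minus strand, at chr2:28609450-28621982. It had 3.07 RPKM in NTB-GMP, from 57 reads, and 0.219 RPKM in 4T1-GMP, from 12 reads in the deeper library. The log2 ratio was -3.31, and 34 of the genes compared had a lower one. Without the pseudocount the level was 14.0-fold lower in 4T1-GMP (interval 7.43 to 28.7). GFI1B resembles GFI1 in its zinc fingers and repressor domain, and the difference of Gfi1b was opposite in direction to that of Gfi1. Gfi1 made up 93.6% of the RPKM of the pair in NTB-GMP and 99.7% in 4T1-GMP. The Gfi1 to Gfi1b ratio of RPKM was 14.7 in NTB-GMP and 377 in 4T1-GMP, a 25.7-fold difference (exact conditional interval 13.6 to 52.8). This ratio lies within each library and does not depend on the library size.

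The lower Gfi1b level stood beside lower erythroid and megakaryocyte genes among those past the filter. Of 11 erythroid and megakaryocyte markers, 4 passed the filter, and all of these were at least 2-fold lower in 4T1-GMP. Gata1, Klf1 and Zfpm1 passed it only through NTB-GMP, so the filter favored lower genes here. Gata1, the erythroid and megakaryocyte regulator, had 4.23 RPKM in NTB-GMP and 0.806 in 4T1-GMP. Klf1, an activator of erythroid genes, had 2.18 and 0.326 RPKM, and Zfpm1, which encodes a GATA1 cofactor, had 5.63 and 0.886 RPKM. The summed RPKM of the 11 markers was 27.8 and 7.40, and the hemoglobin genes Hba-a1 and Hbb-bs were at 0 in both libraries. Of the other markers under the filter, Vwf (0.278 and 0.343 RPKM) and Pf4 (0.334 and 0.453 RPKM) were not lower. Their read intervals of the ratio included 1. Epor, Car1 and Gp1ba had lower values in 4T1-GMP, although the read interval of the Gp1ba ratio also included 1. The basophil and mast cell markers, with summed RPKM of 571 and 264, were lower as well, with 5 of 8 at least 2-fold lower. Of these 5, Cma1 passed the filter only through NTB-GMP (2.28 RPKM, and 0.557 in 4T1-GMP). The share at least 2-fold lower over all genes compared was 4.92%. The stem and early progenitor markers given above were lower too. The GMP sort in the study's methods depletes cells that bear Ter-119, an erythroid marker, and gates on CD150, found on megakaryocyte and erythroid progenitors. The part of these cells in the Gfi1b difference was not tested.

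**Figure D2:**
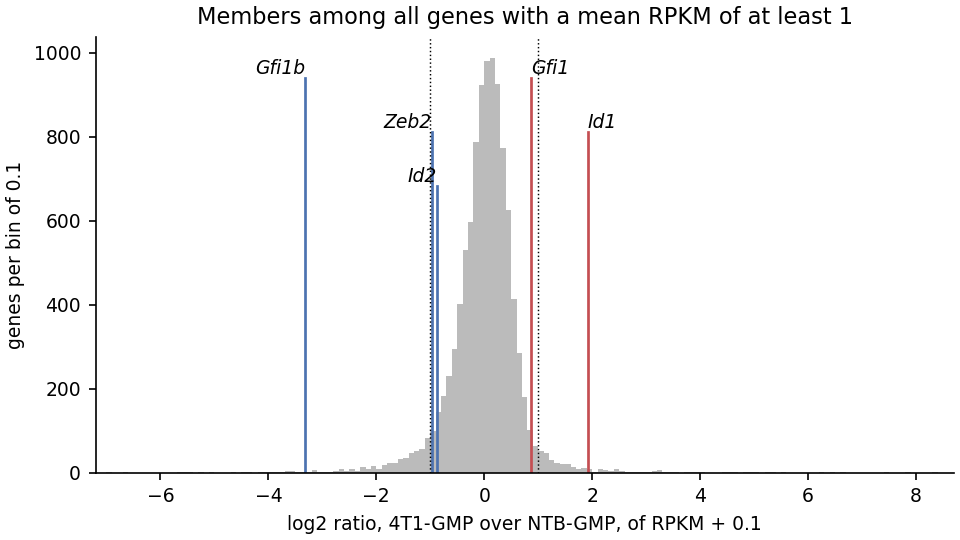
Histogram of log2 ratios (4T1-GMP over NTB-GMP, RPKM + 0.1) of the 10378 genes compared, with vertical lines at the 5 members past that filter and dotted lines at 2-fold. Gfi1b (-3.31) and Id1 (1.92) lie outside the dotted lines, while Zeb2 (-0.97), Id2 (-0.88) and Gfi1 (0.88) lie just inside.

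Id1 lies on the plus strand of chromosome 2 at chr2:152736251-152737410. It had 2.21 RPKM in NTB-GMP, from 21 reads, and 8.63 RPKM in 4T1-GMP, from 242 reads. The RPKM ratio was 3.91 (interval 2.50 to 6.43), and the log2 ratio was 1.92, with 102 of the genes compared having a higher one. The wide interval reflects the 21 reads in NTB-GMP. Its level exceeded that of 8.65% of the compared genes in NTB-GMP and 39.0% in 4T1-GMP.

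Id2 lies on chromosome 12, minus strand, at chr12:25093799-25097140. It had 7.80 RPKM from 101 reads in NTB-GMP and 4.19 RPKM from 160 reads in 4T1-GMP. Id2 was thus lower in 4T1-GMP, 1.86-fold (interval 1.44 to 2.40), with a log2 ratio of -0.88, above that of 6.16% of the genes compared. Id3, on the plus strand at chr4:136143497-136145755, had 2 reads in NTB-GMP (0.206 RPKM) and 0 in 4T1-GMP, where the limit of 3 reads allows up to 0.105 RPKM. Both are at or under that limit, so no fold is given, and Id3 was not detectable as different at this depth. The fourth family gene, Id4, which is not among the 6, was listed at 0 in both libraries.

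The summed level of the Id genes was 10.2 RPKM in NTB-GMP and 12.8 in 4T1-GMP, and its make-up differed more than its size. Id2 supplied 76.4% of the summed RPKM in NTB-GMP and 32.7% in 4T1-GMP, whereas Id1 supplied 21.6% and 67.3%. The order of the genes was thus reversed between the libraries. The Id1 to Id2 ratio of RPKM was 0.283 in NTB-GMP and 2.06 in 4T1-GMP, a 7.27-fold difference (exact conditional interval 4.29 to 12.7) that does not depend on the library size.

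**Figure D3:**
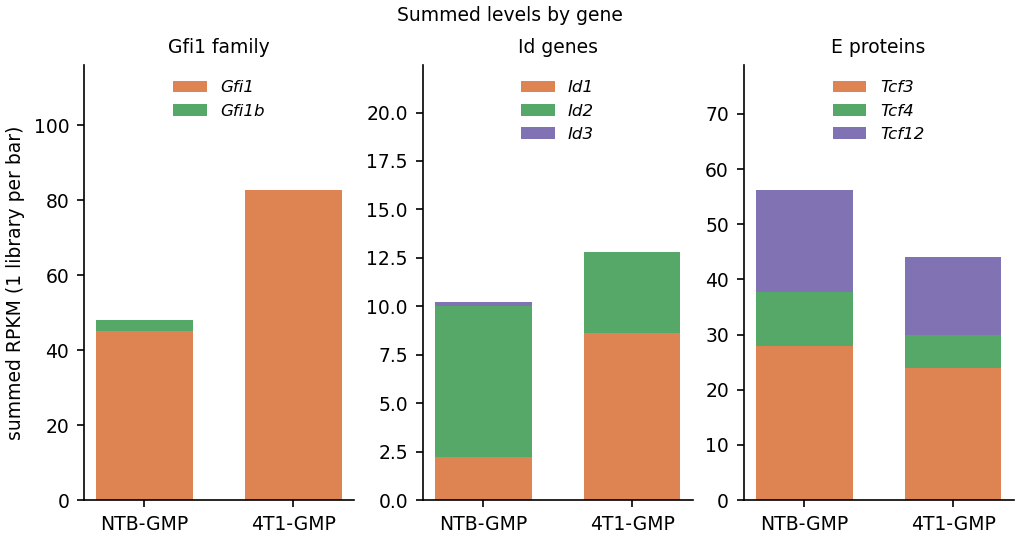
Stacked bars of summed RPKM in NTB-GMP and 4T1-GMP (1 library per bar) for the Gfi1 family, the Id genes and the E protein genes, each panel with its own axis from 0. The Id bars are of similar height (10.2 and 12.8 RPKM), with Id2 the larger part in NTB-GMP and Id1 the larger part in 4T1-GMP.

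The partners of the ID proteins varied less. Tcf3, Tcf4 and Tcf12, which encode the E proteins, were all lower in 4T1-GMP. Tcf4, known for its role in plasmacytoid dendritic cells, had 9.72 RPKM in NTB-GMP and 6.13 in 4T1-GMP (1.58-fold lower, interval 1.45 to 1.73). Tcf12 had 18.7 and 14.0 RPKM (1.33-fold lower, interval 1.23 to 1.44), and Tcf3 had 27.9 and 23.9 RPKM (1.17-fold lower, interval 1.09 to 1.26). The summed E protein RPKM was 5.51 times the summed Id RPKM in NTB-GMP and 3.43 times in 4T1-GMP. Of the helix-loop-helix genes that pair with E proteins, Tal1 had 10.7 and 8.93 RPKM, Lyl1 had 67.5 and 71.9 RPKM, and Tal2 had 1 read in NTB-GMP and 0 in 4T1-GMP. None of the 5 such partner genes past the filter was 2-fold apart, and their median log2 ratio was -0.25, against 0.05 for all genes compared.

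Zeb2 lies on the minus strand of chromosome 2 at chr2:44983632-45117395. Its level was 29.8 RPKM from 2834 reads in NTB-GMP and 15.1 RPKM from 4240 reads in 4T1-GMP. Zeb2 was 1.97-fold lower in 4T1-GMP (interval 1.88 to 2.07), with a log2 ratio of -0.97, above that of 5.11% of the genes compared. Because this value is so close to 2-fold, its side of that limit depends on the scaling: the log2 ratio was -1.14 without the Rn45s reads, -1.05 after quantile normalization and -1.02 after centring on the median gene. Id2 crossed the limit only without those reads, at -1.04, among the alternatives tried. The antisense gene Zeb2os overlaps Zeb2 and had 3.12 and 2.16 RPKM, and since no strand setting is given in the sources used here, reads where these genes overlap cannot be told apart. Zeb1, the close relative of Zeb2, had 6.87 and 7.14 RPKM, with a read interval of the ratio from 0.886 to 1.22, which included 1.

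Zeb2 and Id2 kept nearly the same proportion to each other. The Id2 to Zeb2 ratio of RPKM was 0.262 in NTB-GMP and 0.278 in 4T1-GMP, a 1.06-fold difference whose interval (0.816 to 1.38) included 1. In contrast, the Gfi1 to Zeb2 ratio was 1.51 and 5.48, a 3.62-fold difference (interval 3.36 to 3.90). The Gfi1 to Id2 ratio was 5.77 and 19.7, a 3.42-fold difference (interval 2.62 to 4.44). The Gfi1 to Id1 ratio differed the other way, at 20.4 and 9.58, which is 2.13-fold lower in 4T1-GMP (interval 1.35 to 3.51). None of these ratios depends on the library size, so each of these pairs differed in proportion between the libraries beyond counting error, except Id2 and Zeb2, for which no difference was detectable at this depth.

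The lower Zeb2 and Id2 levels stood beside mostly lower monocyte and dendritic genes, whose median log2 ratio was -1.80 over the 9 markers past the filter. Of these, 6 were at least 2-fold lower, while Csf1r (-0.62) and Ccr2 (-0.73) lay within 2-fold. F13a1, the 1 marker above 0, was nearly equal, at 49.1 RPKM in NTB-GMP and 49.6 in 4T1-GMP (log2 ratio 0.02). Cd74 and H2-Ab1, of antigen presentation, had log2 ratios of -3.10 and -3.40, and Siglech, a plasmacytoid dendritic cell marker, was at 1 or 2 reads. The part of such cells in the Zeb2 and Id2 differences was not tested. In a list of 11 dendritic and monocyte fate factors, 6 passed the filter, 1 was at least 2-fold higher and 2 at least 2-fold lower. The shares over all genes compared were 3.25% and 4.92%. Bcl6 (log2 ratio 0.95) and Bcl11a (-0.97) lay just within 2-fold, and 2 of the 6 were above 0. Irf8, which directs monocyte and dendritic fate, had 32.0 RPKM in NTB-GMP and 4.45 in 4T1-GMP (7.18-fold lower, interval 6.43 to 8.02). Cbfa2t3, which encodes a corepressor, had 8.45 and 3.77 RPKM (2.24-fold lower, interval 2.03 to 2.48). Nfil3, which acts upstream of Id2 in innate lymphoid and dendritic development, was higher, at 1.87 and 5.57 RPKM (2.97-fold, interval 2.12 to 4.27). The Gfi1 to Irf8 ratio of RPKM was 1.41 in NTB-GMP and 18.6 in 4T1-GMP.

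Genes that GFI1 is known to repress did not all share a direction. Of 11 listed, 10 passed the filter, with 4 of the 10 above a log2 ratio of 0 and a median of -0.48. Of the 10, 0 were at least 2-fold higher and 2 at least 2-fold lower, against 3.25% and 4.92% of all genes compared. The 2 were Irf8 and Meis1, a stem cell homeobox gene, which had 17.1 RPKM in NTB-GMP and 4.73 in 4T1-GMP (3.61-fold lower, interval 3.20 to 4.08). Meis1 is also in the list of stem and early progenitor markers, whose median log2 ratio was -1.37. Irf8 is also in that of monocyte and dendritic markers, whose median was -1.80. The part of such cells in either difference was not tested. Id2 and Gfi1b, also known targets, are given above and were left out of this list as members. The corepressors through which the members act were closer to equal. Of 11 corepressor genes of GFI1 and GFI1B, 9 passed the filter and none was 2-fold apart, with a median log2 ratio of -0.01. Kdm1a, which encodes the histone demethylase that GFI proteins recruit, had 28.6 and 33.3 RPKM, and the lowest log2 ratio was that of Rcor3 (-0.56). Of 11 ZEB2 corepressor genes, all passed the filter and none was 2-fold apart, with a median of 0.03 and the lowest value at Mta1 (-0.60). Hdac1 and Hdac2 are in both lists.

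Id genes are known targets of BMP signaling through SMAD proteins. Of 18 receptors, SMADs and regulators of the BMP and TGF-β pathways, 14 passed the filter, 1 was at least 2-fold higher and 0 were at least 2-fold lower. That gene was Bmpr1a, a type I BMP receptor, with 0.215 RPKM in NTB-GMP from 4 reads and 2.15 RPKM in 4T1-GMP from 118 reads, a log2 ratio of 2.84 (interval of the RPKM ratio 3.81 to 37.3). It passed the filter only through 4T1-GMP. Bmpr2, also a BMP receptor gene, was lower, at 5.30 and 3.04 RPKM (1.74-fold, interval 1.57 to 1.93). Of the 14 genes past the filter, 4 were above a log2 ratio of 0. Smad1 and Smad5, which carry the BMP signal, had log2 ratios of -0.12 and -0.36, and the median of the list was -0.17. Over all these related genes, 52 of 66 passed the filter, of which 3.85% were at least 2-fold higher and 5.77% at least 2-fold lower, near the 3.25% and 4.92% of all genes compared.

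**Figure D4:**
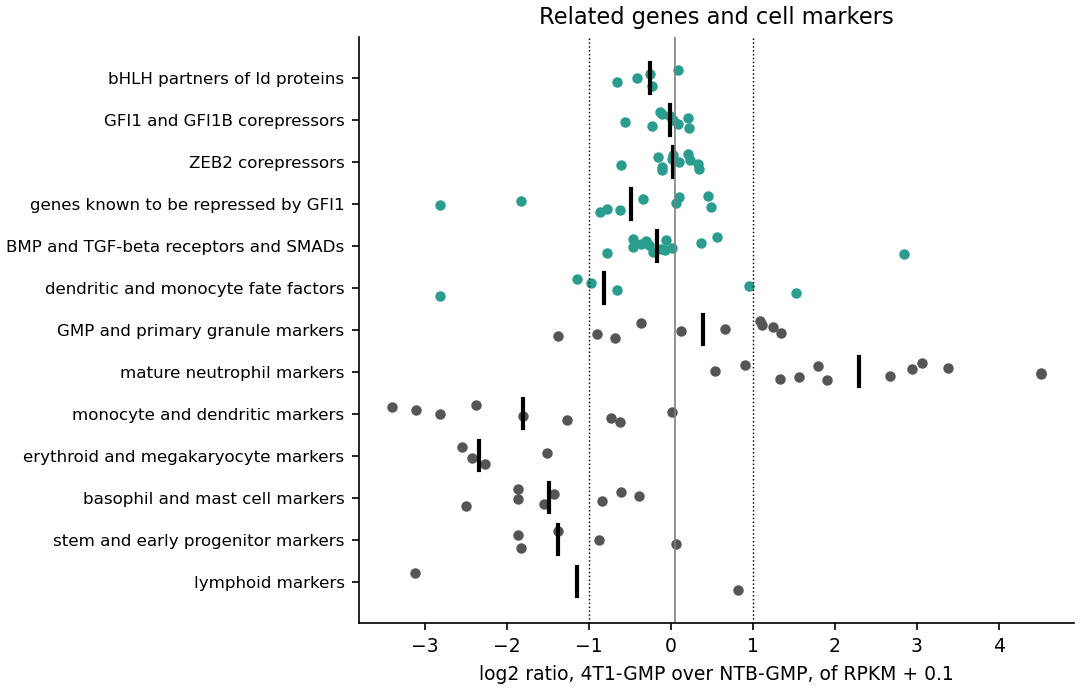
Log2 ratio (4T1-GMP over NTB-GMP, RPKM + 0.1) of each gene past the filter in the lists of related genes (green) and cell markers (gray), with black bars at list medians, a gray line at the median of all genes compared (0.05) and dotted lines at 2-fold. Corepressors lie near 0, while the median of mature neutrophil markers is 2.29 and that of monocyte and dendritic markers -1.80.

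The genes whose pair of levels lay closest to each member, by Euclidean distance over the 2 libraries on the log2(RPKM + 0.1) scale, were Mpc1, a mitochondrial pyruvate carrier gene, and Arl1 for Gfi1 (distances 0.07 and 0.09), Hspa1l and Bpifc for Gfi1b (0.13 and 0.16), 1600002K03Rik and Clec4d for Id1 (0.16 and 0.18), Cercam and Calcoco1 for Id2 (0.01 and 0.04), and Kmt2d, a histone methyltransferase gene, and Apobec3 for Zeb2 (0.10 and 0.11). With 2 libraries, many genes share a pattern by level alone.

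**Figure D5:**
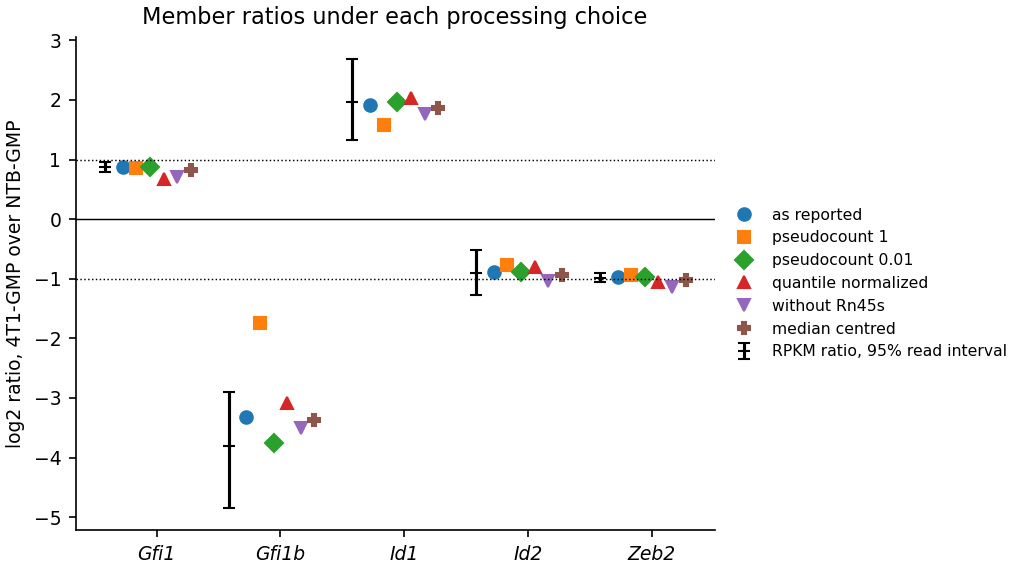
Log2 ratio of the 5 members past the filter under each processing choice (colored symbols), with the RPKM ratio and its 95% read interval in black and dotted lines at 2-fold. Every member keeps its direction, which among the choices shown only quantile normalization could have changed. Gfi1b changes most in size (-1.74 with a pseudocount of 1), and Zeb2 and Id2 lie close to the 2-fold line.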

How the data were processed

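Bulk RNA-seq values of 2 libraries of total RNA were used. The authors deposited RPKM per gene symbol, 1 value per library. Per the labels, the submitters' processing notes name CASAVA 1.8.2, cutadapt 1.2.1, TopHat2 2.0.13, Picard 1.97, HTSeq 0.6.1 and edgeR 3.12.1, with the genome build mm10. The annotation and strand setting are not given in the sources used here. For GMP sorts, the study's methods name depletion of Ter-119, Gr-1, B220 and CD3 positive cells and staining for CD150, CD16/32, Sca-1 and c-Kit; the labels of these libraries say only flow cytometry.

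Whole reads were recovered from the RPKM, since ratios between the libraries are ratios of whole numbers and gene lengths are whole, for 14827 of the 14833 symbols above 0 in either library. For some genes they may be too low, by the same factor in both libraries. The lengths implied for the members ran from 934 bases (Id1) to 9355 bases (Zeb2), and 1822 bases for Gfi1b equaled the longest GENCODE M21 transcript. The implied library sizes are not whole and may include a normalization factor. With 1 library per group, no test of the condition was possible. Clopper-Pearson intervals compare the reads of the libraries, as do the exact conditional intervals of ratios between genes. PCR reads are not independent molecules. Genes named beyond the members were all family and helix-loop-helix partner genes, the nearest 2 by level, and markers beside a result. From the other lists, those at least 2-fold apart were named (otherwise the largest log2 ratio in size). Kdm1a, Smad1, Smad5, Bmpr2, Bcl6, Bcl11a, Zeb2os and some markers were named after their values were seen. The members and lists were chosen with earlier results of these data known. The procedure was tested on simulated data. Alternatives were pseudocounts of 1 and 0.01, a minimum mean RPKM of 5 or none, quantile normalization, library sizes without Rn45s and median centring. Python 3.11.15, numpy 2.4.6, pandas 2.3.3 and scipy 1.17.1 were used.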

Additional observations from a re-analysis of the deposited data

How the results depend on the processing

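Of 25 member values under alternatives (5 members, 5 alternatives each), 20 stayed within the read interval, 5 moved beyond it and 0 reversed. A pseudocount cannot change a direction. Centring subtracts 0.05 from every log2 ratio and leaving out Rn45s shifts them by -0.16, less than the size of any member's ratio. Only quantile normalization could thus have reversed a member. Gfi1, at 0.88 as reported, was 0.67 after quantile normalization and 0.71 without Rn45s. Gfi1b, at -3.31, was -1.74 with a pseudocount of 1, which exceeds its level in 4T1-GMP. Zeb2, at -0.97, was -1.05 after quantile normalization and -1.14 without Rn45s. Id1 stayed between 1.59 and 2.04 and Id2 between -1.04 and -0.76. No ratio of Id3 was given, so it has no alternatives. The shifts without Rn45s follow from the common change of -0.16; the cause of those after quantile normalization was not tested.

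Genes at least 2-fold higher numbered 337 as reported, 734 with all genes above 0 and 170 with a minimum mean RPKM of 5. Those at least 2-fold lower numbered 511 as reported, 1246 with all genes above 0, 181 with a minimum of 5 and 299 with a pseudocount of 1. The filters change the number of genes compared, and the pseudocount shrinks low genes. Higher genes made up 39.7% of those 2-fold apart as reported and 26.1% without Rn45s. Depth limits Id1, Gfi1b and Id3, which rest on few reads. No paired analysis was possible because there was a single library for either condition, which also left no replicate to omit.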
